A study of Mus musculus with 8 samples.

Results

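The genes described here are 10 components of the growth hormone and insulin-like growth factor (IGF) axis: the ligand gene Igf1, its carrier gene Igfals, the receptor genes Ghr and Insr, the feedback gene Socs2 and the binding protein genes Igfbp1, Igfbp2, Igfbp3, Igfbp4 and Igfbp7. They were chosen by name, and their identifiers were found through the symbols in the authors' deposited table. All 10 were among the 54309 genes of the count table and all 10 passed the filter on low counts that left 15472 genes for testing.

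The RNA came from liver tissue of male C57BL/6 mice (C57BL/6J in the series' design). Every mouse, controls included, ate the Fructose-Palmitate-Cholesterol diet for 16 weeks, a feeding model of non-alcoholic steatohepatitis. One group received IgG, a control antibody, and the other an antibody against CD47, a surface protein that restrains engulfment by macrophages, at 200 µg per mouse by intraperitoneal injection between weeks 8 and 16. There were 4 libraries of each group, called IgG 1 to 4 and antiCD47 1 to 4, out of 7 to 8 mice per group. No group on a normal diet was analysed here, and the labels used here give no age and do not tie a library to an animal, so p-values measure only the spread between these libraries, which may be technical.

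The liver is the main source of circulating IGF-1. Growth hormone from the pituitary binds its receptor on hepatocytes, JAK2 phosphorylates the transcription factor STAT5, and STAT5 switches on Igf1, Igfals and the inhibitor gene Socs2. IGF-1 then travels in blood bound to IGF binding proteins, mostly in a complex of IGFBP3 with the acid-labile subunit encoded by Igfals, and insulin adds a second control because it represses Igfbp1 through FOXO1. Inflammation is known to dampen the hepatic response to growth hormone.

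The start sites of these genes differ in base composition, and the 250 bases before a RefSeq start (build GRCm38.p6, older than the GRCm39 build of the processing notes) are shown for the called members Igf1 and Igfbp7, and for Igfals and Igfbp1, which the growth hormone and insulin pathways are known to control. RefSeq windows were found for 8 of the 10 genes, and Insr and Socs2 are only named. In the first pair of sequences capitals mark CpG dinucleotides. Igf1 is at chr10:87860861-87861110 on the + strand and Igfbp7 at chr5:77408046-77408295 on the - strand, 5′ to 3′.
Igf1: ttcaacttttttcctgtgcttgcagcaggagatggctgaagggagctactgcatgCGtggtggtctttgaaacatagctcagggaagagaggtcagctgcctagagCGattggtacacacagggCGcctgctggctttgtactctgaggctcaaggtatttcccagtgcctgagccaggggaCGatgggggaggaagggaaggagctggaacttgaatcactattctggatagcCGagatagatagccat
Igfbp7: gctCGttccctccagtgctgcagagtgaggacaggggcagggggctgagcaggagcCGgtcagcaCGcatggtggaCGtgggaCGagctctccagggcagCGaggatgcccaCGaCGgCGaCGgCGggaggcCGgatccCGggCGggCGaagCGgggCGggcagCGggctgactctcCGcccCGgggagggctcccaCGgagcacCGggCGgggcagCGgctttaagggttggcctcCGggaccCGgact
The Igf1 window held 5 CpG and 52.8% G or C, near the median of 6 CpG and 52.4% over 32851 start sites. The Igfbp7 window held 26 CpG and 74% G or C, above 95.1% of all windows.

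In the next pair capitals mark motif matches. Motifs of 5 kinds were searched on both strands, and no matches overlapped in these windows. The binding motif of STAT factors was taken as TTCNNNGAA, and the core of the insulin response element that FOXO factors bind as CAAAACA. For HNF1, a hepatocyte transcription factor, the letters searched were GTTAAT. For the C/EBP family of transcription factors they were TTGCNNAA, and for the promoter element that positions the polymerase, the TATA box, they were TATAAA. The Igfals window, 1 of 3 in the table, is at chr17:24877981-24878230 on the + strand and that of Igfbp1 at chr11:7197537-7197786 on the + strand.
Igfals: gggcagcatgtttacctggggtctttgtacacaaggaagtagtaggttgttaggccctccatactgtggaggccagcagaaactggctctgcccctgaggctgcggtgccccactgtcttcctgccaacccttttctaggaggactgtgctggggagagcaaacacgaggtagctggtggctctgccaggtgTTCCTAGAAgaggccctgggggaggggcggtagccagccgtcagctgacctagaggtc
Igfbp1: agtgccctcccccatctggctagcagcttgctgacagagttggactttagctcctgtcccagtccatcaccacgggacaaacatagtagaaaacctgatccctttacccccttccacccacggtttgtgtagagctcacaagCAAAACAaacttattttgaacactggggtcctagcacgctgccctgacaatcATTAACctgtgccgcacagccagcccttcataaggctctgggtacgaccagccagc
In Igfals the STAT motif lay at positions -58 to -50 from the start, and 7.02% of all windows of this length held that motif. Another Igfals window held it too, at -236 to -228. Igfbp1 had the insulin response core at -108 to -102 (5.56% of windows held it) and the HNF1 motif at -56 to -51 (6.43%). The Igf1 and Igfbp7 windows held none of the 5 motifs, of which the C/EBP motif was in 9.56% and the TATA box in 12.4% of windows. A match is a string of letters and not a measured site.

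Total counts were 43691472 to 55477484 per library. Values are CPM, counts per 1000000 of a library size scaled by TMM, a method that assumes most genes do not change. The TMM factors lay between 1.03 and 1.11 in IgG and between 0.895 and 0.989 in antiCD47, so the scaling itself moved with the treatment. With library totals in place of TMM the median log2 fold change of all genes went from -0.01 to -0.19. The genes past the threshold were 842 higher and 836 lower with TMM, 428 and 3153 with library totals, and 634 and 969 with upper quartile scaling. The labelled tissue was checked against hepatocyte markers, of which Alb, the albumin gene, was the most abundant at a mean of 42482 CPM in IgG and 46638 CPM in antiCD47.

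Of the 10 genes, Igf1 and Insr rose and Igfbp7 fell in antiCD47 livers (edgeR quasi-likelihood test, adjusted p under 0.05 over all genes). Among all 15472 genes tested 10.8% passed, 5.44% higher and 5.4% lower. The libraries of the groups did not overlap for these 3 genes, as for 19.6% of all genes. Ghr and Igfbp4 were nearly level, and Igfals, Igfbp1, Igfbp2 and Igfbp3 also had intervals spanning 0. Socs2 had a wide interval, from 0.09 to 1.96, and did not pass over all genes. In the authors' deposited table the same 3 genes passed, with adjusted p-values of 0.0254 for Igf1, 0.00814 for Insr and 0.000215 for Igfbp7. The sign there was that found here for 8 of the 10 genes, and Ghr and Igfbp4, both near 0, were positive in the authors' deposited table and negative here. The median log2 fold change of the 10 genes was 0.08, beside -0.01 over all genes.

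**Figure D1:**
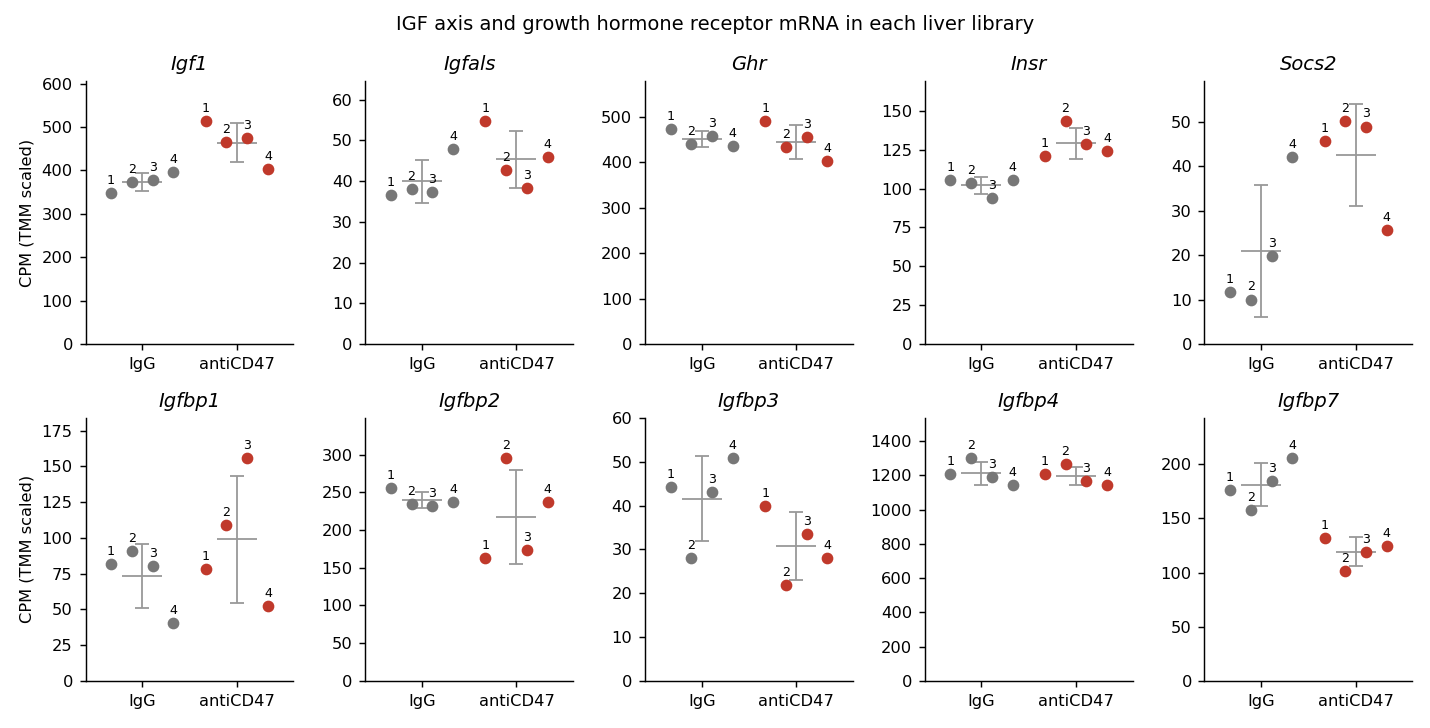
TMM-scaled CPM of each of the 10 genes in every library, with the library number beside each point, and the mean and SD (n = 4 per group) as a bar with whiskers. The groups separate for Igf1, Insr and Igfbp7, while IgG 4 sits among the antiCD47 libraries for Socs2 at 42.1 CPM.

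Igf1 (ENSMUSG00000020053) encodes the growth factor itself. It was at 347, 374, 379 and 397 CPM in IgG 1 to 4 and at 514, 465, 475 and 403 CPM in antiCD47 1 to 4. Every antiCD47 library lay above every IgG library, with antiCD47 4 only just above IgG 4. The mean went from 374 ± 20.5 to 464 ± 45.7 CPM (SD, n = 4 each), a 1.24-fold difference and a log2 fold change of 0.31 ± 0.09 (SE; 95% interval 0.12 to 0.50; edgeR adjusted p = 0.0471). Igf1 passed in 5 of 17 alternative settings, and with library totals its log2 fold change was 0.12 (adjusted p = 0.33). In CPM of the library total, IgG 4 at 440.3 lay above 3 antiCD47 libraries at 399 to 433, so the groups overlapped.

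Igfals (ENSMUSG00000046070) encodes the acid-labile subunit, which holds IGF-1 in the long-lived blood complex and is made almost only by hepatocytes. Its values were 36.5, 38.1, 37.4 and 47.8 CPM in IgG 1 to 4 and 54.7, 42.8, 38.2 and 45.9 CPM in antiCD47 1 to 4. The groups overlapped, and IgG 4 was the second highest of all 8 libraries. Its log2 fold change of 0.18 ± 0.12 (95% interval -0.09 to 0.46; edgeR adjusted p = 0.324) did not pass, and it was 0.00 with library totals, 0.08 without antiCD47 1 and 0.28 without IgG 4.

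Hepatocyte markers give the setting for these liver-made factors. Of 14 such genes, 0 rose or fell, their summed level was 73972 to 80295 CPM in IgG and 76647 to 89875 CPM in antiCD47, and none of them was at 0. Cyp2e1, a cytochrome P450 gene, had a log2 fold change of 0.05 and Apoa1, an apolipoprotein gene, one of -0.09. Macrophages also transcribe Igf1. Of 14 Kupffer cell and macrophage markers 7 rose and 0 fell (6 and 0 with library totals), beside 5.44% higher and 5.4% lower over all genes. Cd5l rose from 129 to 203 CPM (not past the threshold with library totals, adjusted p = 0.0714), while C1qa and C1qb did not pass (edgeR adjusted p = 0.0859 and 0.0719). The summed level was 497 to 774 CPM in IgG and 782 to 1099 CPM in antiCD47, without overlap under TMM. The closest libraries, IgG 3 and antiCD47 1, had TMM factors of 1.10 and 0.955, so their order depended on the scaling. The part of these cells in the Igf1 difference was not tested. In bulk tissue, fewer cells of a type and less RNA per cell cannot be told apart.

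Ghr (ENSMUSG00000055737), the growth hormone receptor gene, was at 474, 442, 458 and 435 CPM in IgG 1 to 4 and at 491, 434, 455 and 402 CPM in antiCD47 1 to 4. The receptor message therefore ranged over nearly the same values in both groups. The log2 fold change was -0.02 ± 0.08 (95% interval -0.19 to 0.15; edgeR adjusted p = 0.869), and -0.21 with library totals (adjusted p = 0.0676). The interval under TMM leaves room for a difference of up to 0.19 on the log2 scale in the downward direction.

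Insr (ENSMUSG00000005534), the insulin receptor gene, was at 105, 104, 94.2 and 106 CPM in IgG 1 to 4 and at 121, 143, 129 and 124 CPM in antiCD47 1 to 4. All antiCD47 libraries were higher than all IgG libraries, antiCD47 2 most of all. The mean rose from 102 ± 5.44 to 129 ± 9.999 CPM (SD, n = 4 each), a 1.26-fold difference and a log2 fold change of 0.34 ± 0.07 (SE; 95% interval 0.17 to 0.50; edgeR adjusted p = 0.027). Scaled by library totals, Insr was at 0.15 on the log2 scale and did not pass (adjusted p = 0.109), with IgG 4 at 117.1 CPM of the library total between antiCD47 1 at 115.3 and antiCD47 3 at 117.3.

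Socs2 (ENSMUSG00000020027) encodes a SOCS-box protein that switches off growth hormone receptor signalling and is itself induced by STAT5. It was the most variable of the 10 genes among controls, at 11.8, 10.04, 19.9 and 42.1 CPM in IgG 1 to 4, a 4.19-fold range, and at 45.5, 50.1, 48.9 and 25.7 CPM in antiCD47 1 to 4. Of the 8 libraries 3 antiCD47 libraries were highest, but IgG 4 lay above antiCD47 4. The means were 20.9 ± 14.7 and 42.6 ± 11.4 CPM, a 2.03-fold difference, and the log2 fold change of 1.02 ± 0.42 (95% interval 0.09 to 1.96) did not pass over all genes (edgeR adjusted p = 0.126). Voom with library quality weights was the 1 setting of 17 in which Socs2 passed (log2 1.33, adjusted p = 0.024), and without IgG 4 the log2 fold change was 1.62 (adjusted p = 0.0583).

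Cish, a second STAT5-induced inhibitor of the same receptor, was set beside Socs2. Its CPM in IgG 1 to 4 was 14.2, 12.9, 27.1 and 45.97, the same order of libraries as for Socs2. In antiCD47 1 to 4 it was 19.6, 17.9, 11.8 and 8.48 CPM, with antiCD47 4 lowest for both genes. The log2 fold change of Cish was -0.79 ± 0.41 (edgeR adjusted p = 0.208), opposite in sign to that of Socs2, and neither passed.

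**Figure D2:**
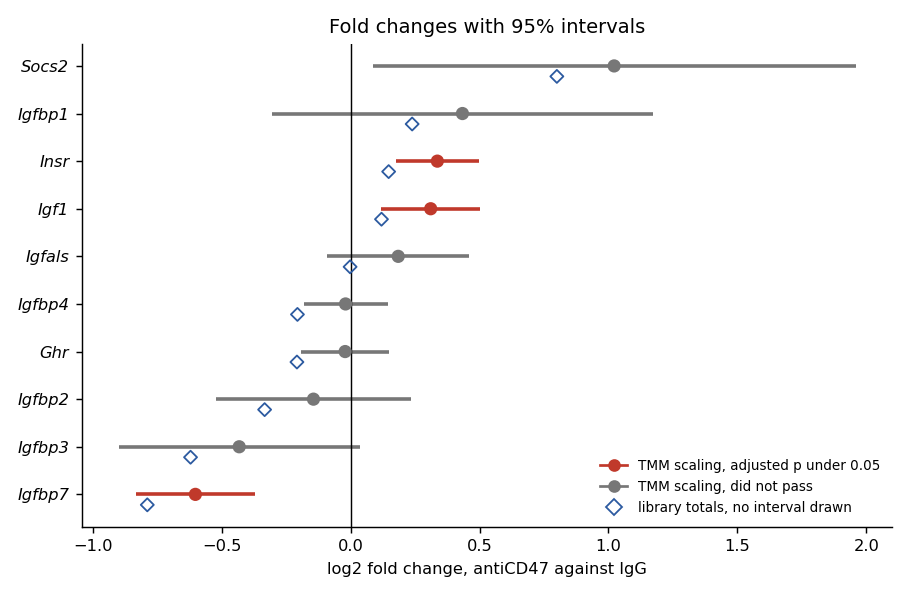
Log2 fold change of each gene in antiCD47 against IgG, with TMM scaling (filled points with 95% intervals, red where the adjusted p was under 0.05) and with library totals (open diamonds). Library totals move every gene to the left, so Igf1 and Insr come closer to 0 and Igfbp7 goes from -0.60 to -0.79.

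The IGF binding proteins carry IGF-1 in blood and tissue and limit its access to receptors. Igfbp7 (ENSMUSG00000036256) codes for a relative that binds IGFs weakly and is secreted by mesenchymal and endothelial cells. It was at 176, 158, 184 and 206 CPM in IgG 1 to 4 and at 132, 101, 119 and 125 CPM in antiCD47 1 to 4. The highest antiCD47 library stayed below the lowest IgG library, on the TMM scale and with library totals alike. Its mean fell from 181 ± 19.8 to 119 ± 13.2 CPM (SD, n = 4 each), to 0.659 of the IgG level, with a log2 fold change of -0.60 ± 0.10 (SE; 95% interval -0.83 to -0.37; edgeR adjusted p = 0.017). It passed under each of the other scalings and tests, with values of -0.79 with library totals and -0.66 with upper quartile scaling.

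Some cell markers moved with Igfbp7. Of 15 markers of stellate cells and fibroblasts 5 fell, 1 rose and 9 did not pass, beside 5.4% lower and 5.44% higher over all genes. The 9 had log2 fold changes from -0.43 to 0.18. Col3a1, a fibrillar collagen gene, went from 290 to 128 CPM and Ecm1, a matrix protein gene that rose, from 125 to 161 CPM (not past the threshold with library totals, adjusted p = 0.117), while Dcn, the decorin gene, was at 318 and 292 CPM (log2 -0.12, edgeR adjusted p = 0.475). The summed level of this list was 1091 to 1506 CPM in IgG and 790 to 1035 CPM in antiCD47, without overlap, and abundant genes weigh most in it. Besides Col3a1, the collagen genes Col1a1 (111 to 46.7 CPM) and Col1a2 (126 to 59.4 CPM) fell. Among the 9 that did not pass, Lrat was at 41.3 and 40.2 CPM, Reln at 67.2 and 75.4 CPM and Pdgfrb at 28.9 and 21.5 CPM. Of 14 endothelial markers Eng, a TGF-beta co-receptor gene, fell (log2 -0.36) and 13 did not pass, Stab2 and Cdh5 among them, and the summed levels of 296 to 409 and 313 to 373 CPM overlapped. No marker of either list was at 0 in every library. The part of these cells in the Igfbp7 difference was not tested.

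Igfbp3 (ENSMUSG00000020427) encodes the main carrier of circulating IGF-1. Its values were 44.3, 28.0, 43.2 and 50.9 CPM in IgG 1 to 4 and 39.9, 21.8, 33.5 and 28.1 CPM in antiCD47 1 to 4. IgG 2 was low among the controls and lay within the antiCD47 range. The log2 fold change was -0.43 ± 0.21 (95% interval -0.90 to 0.04; edgeR adjusted p = 0.183), which did not pass.

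Igfbp1 (ENSMUSG00000020429), the binding protein gene that fasting raises and insulin lowers, varied within both groups, at 81.6, 91.0, 80.5 and 40.3 CPM in IgG 1 to 4 and at 78.6, 109, 156 and 52.7 CPM in antiCD47 1 to 4. Its highest library, antiCD47 3, had 2.96 times the level of antiCD47 4 in the same group. The log2 fold change was 0.43 ± 0.33 (95% interval -0.30 to 1.17; edgeR adjusted p = 0.386), an interval that holds both 0 and the value seen for Igf1. It was 0.13 without antiCD47 3 and 0.65 without antiCD47 4.

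Igfbp2 (ENSMUSG00000039323), which hepatocytes also secrete, was tight in controls and dispersed after antibody. The IgG libraries lay at 256, 235, 232 and 238 CPM (coefficient of variation 4.58%) and the antiCD47 libraries at 163, 296, 173 and 237 CPM (28.4%). One pair of antiCD47 libraries, 1 and 3, was below every control and antiCD47 2 was above every control, and the difference in spread was not tested. The log2 fold change was -0.14 ± 0.17 (95% interval -0.52 to 0.23; edgeR adjusted p = 0.584), and it was -0.03 without antiCD47 1, -0.05 without antiCD47 3 and -0.33 without antiCD47 2.

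Igfbp4 (ENSMUSG00000017493) encodes a binding protein that mostly inhibits IGF action. It was at 1206, 1301, 1192 and 1145 CPM in IgG 1 to 4 and at 1208, 1264, 1166 and 1141 CPM in antiCD47 1 to 4. These ranges almost coincided, with a log2 fold change of -0.02 ± 0.07 (95% interval -0.18 to 0.14; edgeR adjusted p = 0.873). With library totals the groups separated and the value was -0.21 (adjusted p = 0.0454), close to the shift of the median gene under that scaling.

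Levels between genes were compared per kilobase of the longest annotated protein-coding transcript, as CPM per kb. In IgG livers the order was Igfbp4 (316 CPM per kb), Igfbp2 (184), Igfbp7 (151), Ghr (108), Igf1 (53.1), Igfbp1 (48.1), Igfbp3 (17.2), Igfals (15.2), Insr (10.9) and Socs2 (9.42). The neighbours Igf1 and Igfbp1, Igfbp3 and Igfals, and Insr and Socs2 overlapped between libraries. In antiCD47 livers Igfbp7, at 99.4 CPM per kb, overlapped with Ghr, at 107. The order depended on the length used: per kb of the median annotated transcript, which is shorter for Igf1, Ghr and Igfbp4, the IgG levels were 1632 for Igfbp4, 373 for Ghr, 274 for Igf1 and 209 for Igfbp2.

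**Figure D3:**
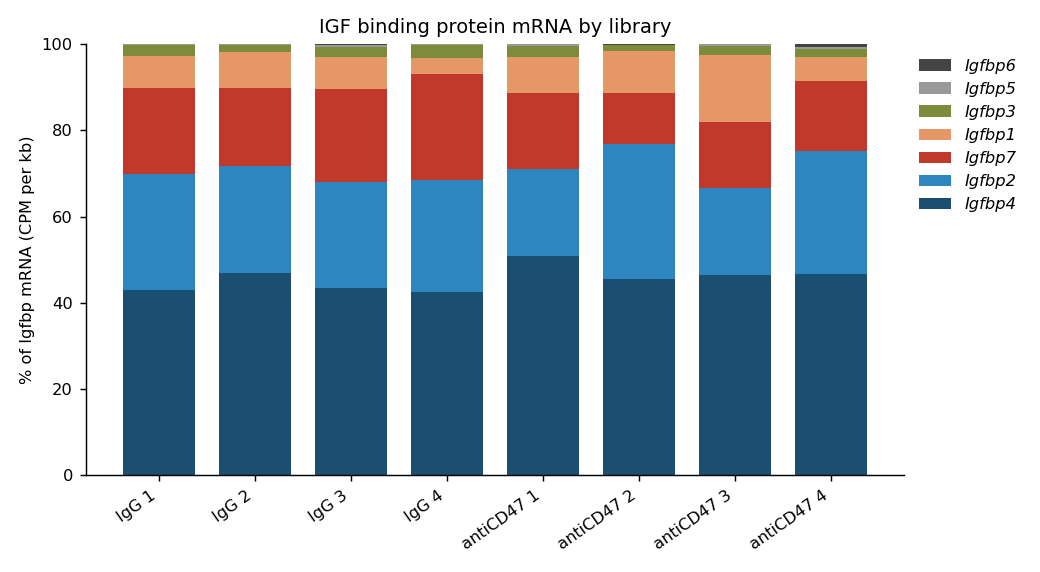
Share of each binding protein gene in the summed Igfbp message of a library, in percent of CPM per kb of the longest transcript, for 7 genes (Igfbp5 and Igfbp6 added to the 5 members). Igfbp4 is the largest part of every bar and the Igfbp7 part is smaller in each antiCD47 library than in each IgG library.

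Over the 7 Igfbp genes measured, Igfbp4 made up 44.0 ± 1.98% of the message per length in controls (SD, n = 4) and 47.4 ± 2.33% after antibody. The Igfbp7 share went from 21.0 ± 2.64% to 15.2 ± 2.6%, with libraries from 18.2 to 24.5% and from 11.7 to 17.7%. Igfbp1 took 6.67 ± 1.98% and 9.8 ± 4.29%. Igfbp3, the carrier of the blood complex, took 2.4 ± 0.58% and 1.96 ± 0.59%. Igfbp5 and Igfbp6 took under 1% in every library. The shares depended on the length used: with median transcript lengths Igfbp4 took 78.9% in IgG and 81.1% in antiCD47, Igfbp7 7.59% and 5.22%, and Igfbp1 2.31% and 3.26%.

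Around these genes, other ligands and receptors did not pass in 6 of 6 tested of 9 listed (median log2 0.03). Igf1r, the IGF-1 receptor gene, which hepatocytes express little, was at 4.32 ± 0.77 and 3.49 ± 0.64 CPM (edgeR adjusted p = 0.244). Igf2r, a clearance receptor for IGF-2, was at 41.9 ± 4.58 and 40.2 ± 2.01 CPM, Prlr, the prolactin receptor gene, at 40.2 ± 11.9 and 50.97 ± 2.81 CPM, and Igf2, the fetal growth factor gene, at 0.403 ± 0.094 and 0.36 ± 0.059 CPM.

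Of 15 genes of growth hormone receptor signalling 2 rose and 0 fell, while 10.8% of all genes passed in either direction. The median log2 fold change of the list was 0.18 (-0.01 with library totals). Stat3, a transcription factor that the receptor shares with interleukin-6, was at 105 ± 43.7 CPM in controls against 220 ± 47.2 CPM, and rose (log2 1.07 ± 0.26, adjusted p by edgeR 0.0324). Ptpn1, a phosphatase that dephosphorylates JAK2 and the insulin receptor, rose from 34.7 ± 10.4 to 76.5 ± 26.5 CPM (log2 1.14 ± 0.26, adjusted p by edgeR 0.0302). IgG 2 was the highest control for both, at 170.0 CPM for Stat3 and 50.1 CPM for Ptpn1. The kinase gene Jak2 (0.18 ± 0.16), Stat5a (0.24 ± 0.12) and Stat5b (-0.13 ± 0.09) did not pass. Stat5b passed as lower with library totals (-0.31, adjusted p = 0.0397), a scaling that moved the median of all genes to -0.19.

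Acute phase genes, which interleukin-6 and STAT3 drive in hepatocytes, moved with Stat3: 18 of 25 rose and 0 fell, and their summed level was 20814 to 36785 CPM in IgG, highest in IgG 2, and 43348 to 76991 CPM in antiCD47. By the mean over all 8 libraries C3, a complement gene, Fga, a fibrinogen gene, and Hp, the haptoglobin gene, were the most abundant of them. Socs3, a feedback inhibitor of both cytokine and growth hormone receptors, was at 7.95, 30.4, 7.71 and 8.37 CPM in IgG 1 to 4 and at 8.93, 23.3, 16.1 and 14.1 CPM in antiCD47 1 to 4, without passing (edgeR adjusted p = 0.797). The part of the acute phase state in the results of the 10 genes was not tested.

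Inside the insulin and IGF signalling chain 2 of 28 genes rose and 4 fell, while 10.8% of all genes passed in either direction. The median log2 fold change of the list was -0.01. Grb14 (-0.56 ± 0.13) and Grb10 (-0.79 ± 0.17), adaptors that bind the insulin receptor and inhibit it, fell. Grb14 went from 48.3 ± 3.32 to 32.8 ± 6.71 CPM (edgeR adjusted p = 0.0328). Tsc1, an inhibitor of mTORC1, fell by 0.43 on the log2 scale. Rps6kb1, the S6 kinase gene downstream of mTORC1, rose by 0.44 ± 0.08 and the adaptor gene Grb2 by 0.35 ± 0.09, the latter without passing with library totals (adjusted p = 0.135). Irs1 (-0.29 ± 0.21), Irs2 (-0.20 ± 0.10) and Foxo1 (-0.08 ± 0.07), the receptor substrates and the insulin-restrained factor, did not pass. With library totals 1 gene of the list was higher and 8 were lower, with a median of -0.20. Irs2 (-0.39, adjusted p = 0.0221) and Foxo1 (-0.26, adjusted p = 0.0221) were among the lower ones. Over all 15472 genes that scaling gave 428 higher and 3153 lower, with a median of -0.19.

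Among 14 measured genes that fasting and insulin switch, 0 rose and 3 fell, beside 5.44% higher and 5.4% lower over all genes. The median log2 fold change of the list was -0.21, beside -0.01 over all genes. With library totals 0 were higher and 5 lower, with a median of -0.40 beside -0.19 over all genes. Ppargc1a, a coactivator induced by fasting, fell by 0.99 on the log2 scale, Txnip, a glucose-induced brake on glucose uptake, by 0.51 and Srebf1, the lipogenic factor that insulin induces, by 0.34. Insulin is known to lower Ppargc1a and to raise Srebf1. Igfbp1, the member under the same control, did not pass.

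**Figure D4:**
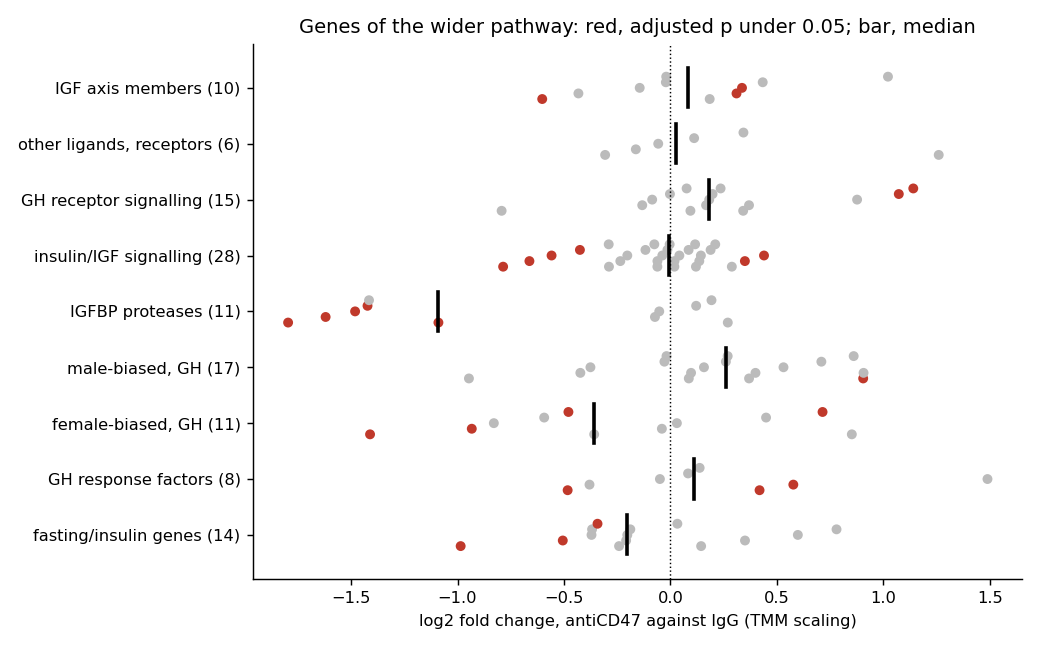
Log2 fold change with TMM scaling of each tested gene in the 10 members and in 8 lists of the wider pathway, with the number tested in brackets, red where the adjusted p was under 0.05 and a bar at the list median. The protease list has the lowest median, at -1.09, and the other lists have medians between -0.36 and 0.26.

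Genes of IGFBP proteolysis had 5 lower and 0 higher of 11 tested (14 listed), beside 5.4% lower and 5.44% higher over all genes. The median log2 fold change of the list was -1.09, beside -0.01 over all genes. Htra1 (-1.48 ± 0.21, edgeR adjusted p = 0.0147) and Htra3 (-1.09 ± 0.30) encode serine proteases that can cleave IGFBPs. Mmp2 (-1.62 ± 0.25) and Mmp7 (-1.80 ± 0.41) encode metalloproteinases better known for matrix turnover. Stc2 (-1.42 ± 0.26) encodes stanniocalcin-2, which inhibits the IGFBP proteases PAPP-A and PAPP-A2 and so is not a protease. Stc2 was low, at 1.61 and 0.60 CPM in IgG and antiCD47. Pappa, the PAPP-A gene, was at 0.16 and 0.17 CPM (log2 0.12, edgeR adjusted p = 0.89). The abundant genes of the list did not pass: Plg, the plasminogen gene, was at 1274 and 1456 CPM (log2 0.19), Ctsd, a lysosomal protease gene, at 506 and 488 CPM (-0.05) and Furin, a proprotein convertase gene, at 276 and 262 CPM (-0.07). The summed level of the list therefore overlapped, at 1983 to 2233 CPM in IgG and 2117 to 2437 CPM in antiCD47. Furin and Adam12, a metalloproteinase gene, passed as lower with library totals (adjusted p = 0.0301 and 0.0322), as did 3153 of all 15472 genes. Htra1 was at 11.5, 8.64, 10.4 and 14.6 CPM in IgG 1 to 4 and at 4.70, 2.64, 4.55 and 4.31 CPM in antiCD47 1 to 4. Bile duct and progenitor markers moved with this list, with 10 of 11 lower and 0 higher, as did 5 of the 15 stellate and fibroblast markers above. The bile duct list summed to 453 to 622 CPM in IgG and 123 to 370.2 CPM in antiCD47. Spp1, the osteopontin gene, made up most of this sum in every library, at means of 439 and 163 CPM. The part of these cells in the protease result was not tested.

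Growth hormone pulses set a sex-biased programme in liver, and its genes were set beside all genes, of which 5.44% passed as higher and 5.4% as lower. Of 17 tested male-biased genes Susd4 (0.91 ± 0.25) rose, near the share over all genes, and 16 did not pass. Among the 16 were Cyp7b1, an oxysterol hydroxylase gene (0.86 ± 0.25, edgeR adjusted p = 0.054), Ugt2b1, a glucuronosyltransferase gene (0.40 ± 0.12), and Gna14 (-0.95 ± 0.32). Gna14 was 1 of 2 genes of this list that passed as lower with library totals (adjusted p = 0.0433). Of 11 tested female-biased genes Acot3, an acyl-CoA thioesterase gene, rose (0.71 ± 0.20) and Prom1 (-1.41 ± 0.25), Tox (-0.93 ± 0.23) and Fmo2 (-0.48 ± 0.13) fell. Prom1 is also a bile duct marker, and Acot3 did not pass with library totals (adjusted p = 0.0931).

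Of 8 transcription factors of the growth hormone response Hnf4a (0.58 ± 0.15) and Trim24 (0.42 ± 0.11) rose and Foxa2 (-0.48 ± 0.11) fell. Among all genes 10.8% passed in either direction. Hnf4a, a master regulator of hepatocyte genes, went from 504 ± 76.1 to 752 ± 141 CPM. Trim24, a co-regulator of nuclear receptors, did not pass with library totals (adjusted p = 0.107). Bcl6, a repressor that opposes STAT5 at its targets, was at 7.99, 8.86, 7.06 and 12.4 CPM in IgG 1 to 4 and at 5.92, 9.59, 31.3 and 55.4 CPM in antiCD47 1 to 4. It did not pass (log2 1.49 ± 0.59, edgeR adjusted p = 0.118), with high values in antiCD47 3 and 4 only.

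Red cell markers (7 of 7 tested higher), neutrophil markers (10 of 10 tested higher) and lymphocyte markers (0 of 12 past the threshold) completed the lists of cells. Summed levels in IgG and antiCD47 were 445 to 680 and 1231 to 2215 CPM for red cell markers and 7.4 to 9.77 and 17.9 to 37.8 CPM for neutrophil markers, and the part of these cells in the results of the 10 genes was not tested.

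The genes most like Igf1 over the 8 libraries, by Pearson correlation of log2 CPM, were Phf8 (r = 0.99), Efr3b (r = 0.98) and Prpf6 (r = 0.96). Those most like Igfbp7 were Tm4sf1, Col3a1 and Fbln5, with r = 0.996, 0.995 and 0.995. The libraries share the treatment difference and the same scaling, so these values are a description only.

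**Figure D5:**
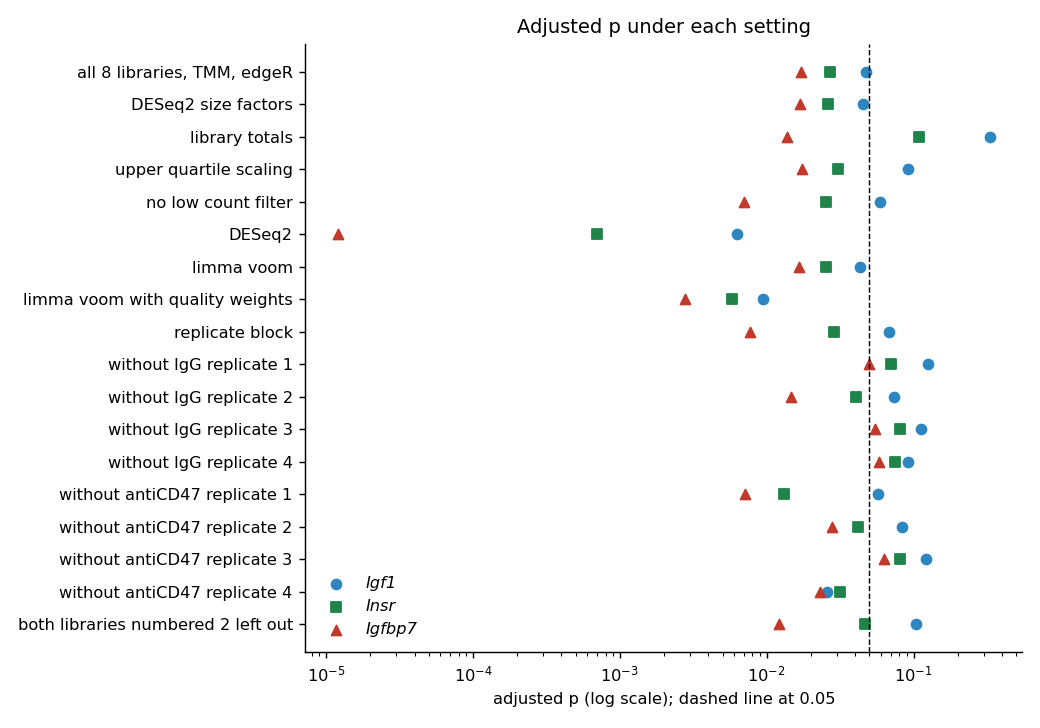
Adjusted p (log axis, dashed line at 0.05) of Igf1, Insr and Igfbp7 with all libraries and under each of 17 alternative settings. Igf1 lies right of the line in 12 of the 17 alternatives, and all 3 genes lie right of it without IgG 1, IgG 3, IgG 4 or antiCD47 3.

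The 3 calls depended on single libraries. With IgG 1, 3 or 4 or antiCD47 3 dropped, none of the 10 genes passed, with adjusted p-values for Igfbp7 of 0.0501 to 0.063, for Insr of 0.07 to 0.0804 and for Igf1 of 0.0919 to 0.126, while their log2 fold changes kept their signs. The 24 genes of the wider pathway that passed behaved alike, with 3, 2 and 0 still past the threshold when IgG 1, 3 or 4 was dropped and 10 and 0 when antiCD47 2 or 3 was, and 24 of 24 with the same sign each time. When single libraries were left out, Igf1 passed only without antiCD47 4. Over all genes the count of 1678 became 174, 92 and 2 when IgG 1, 3 or 4 was dropped, and 3630, 756 and 21 when antiCD47 1, 2 or 3 was dropped.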

How the data were processed

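Polyadenylated RNA was sequenced in 8 liver libraries, made with Illumina TruSeq chemistry per the labels' protocols. The deposited table holds raw whole-number counts per Ensembl gene. Salmon 1.3.0, DESeq2 1.32.0 and the build GRCm39 are named, with no role, in the submitters' processing notes. The authors' deposited comparison table gives a mean signal (normalized count), a log2 fold change, an adjusted and an unadjusted p-value and a score used for ranking, per the file headers. Besides its gene symbols and identifiers, only its signs and adjusted p-values were used. It does not name its reference group, and 13438 of 14241 shared genes had the sign of antiCD47 minus IgG.

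Columns were matched to libraries by title, with 0 columns unused. Counts were filtered with filterByExpr, scaled with TMM and tested with glmQLFit and glmQLFTest in edgeR 4.0.16 (R 4.3.3), two-sided, with Benjamini-Hochberg adjustment over 15472 genes. CPM are counts per 1000000 of the scaled library size. The scripts were tested on simulated data. No 2 libraries of a group agreed within sampling noise (smallest chi-square per degree of freedom 24.2). Alternatives were 3 other scalings, no filter, DESeq2 1.42.0, limma 3.58.1 voom with and without quality weights, the replicate number as a block, each library left out, and both libraries numbered 2 left out, added after seeing the data. The 10 genes and 17 lists were chosen with earlier results of these data known. Named are the 10 genes, 12 preset pathway genes, all pathway genes past the threshold (1 is not reported here), the 4 sex-biased genes of smallest p per list, up to 3 abundant markers per list, and for likeness 3 genes each, leaving out predicted genes and means under 1 CPM. Socs3, Igfbp5, Igfbp6, Plg, Ctsd, Furin, Adam12, Pappa, Col1a1, Col1a2, Lrat, Reln and Pdgfrb fall outside the rule and were chosen after their values were seen. Transcript lengths came from GENCODE vM21 and start windows from RefSeq, both of GRCm38. Python 3.11.15 and matplotlib 3.10.9 drew the figures.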

Additional observations from a re-analysis of the deposited data

Results flagged for a closer look

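In a group of 4 libraries a value was marked where its gap to the nearest library took more of the group's range than Dixon's 95% critical value for 4 samples, which chance alone gives in about 1 of 20 groups. Igfals in IgG 4, at 47.8 CPM, stood above the other controls at 36.5 to 38.1 CPM (gap 0.861 of the range). Insr in IgG 3, at 94.2 CPM, stood below the other controls at 104 to 106 CPM (0.846 of the range). Without IgG 3 the log2 fold change of Insr was 0.30 (edgeR adjusted p = 0.0803), and without IgG 4 that of Igfals was 0.28 (edgeR adjusted p = 0.162). All 10 genes were checked in both groups.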

How the results depend on the processing

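Of 1678 genes past the threshold with all libraries, leaving out 1 library gave between 2 and 3630, and of the 10 members between 0 and 3 passed. Over all genes the count was 3581 with library totals, 3179 by DESeq2, 4331 by voom with quality weights, 3574 at an adjusted p of 0.1 and 1090 without both libraries numbered 2, where 2, 3, 4, 3 and 2 of the members passed. Signs turned for Igfals with library totals (log2 0.00, computed as -0.0021), for Ghr without IgG 1 (0.0017) and without antiCD47 4 (0.029), and for Igfbp4 without IgG 2 (0.018) and without antiCD47 4 (0.0067). Leaving out 1 library moved Ghr between -0.070 and 0.029 and Igfbp4 between -0.047 and 0.018. The numbers shared by the groups are not said to mark pairs and same-numbered libraries did not deviate together (correlations -0.023 to 0.157). With the number as a replicate block 2425 genes and 3 members passed, Igfbp3 (-0.43, adjusted p = 0.0473) among them and Igf1 (0.31, adjusted p = 0.0685) not. Igfbp1 and Igfbp2 kept their sign and stayed short of the threshold in all 17 alternatives. The cause of these differences was not tested.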
